A study of Mus musculus with 12 samples.

Results

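The 9 genes described here encode the transporters of the canalicular membrane of the hepatocyte, the face across which bile is secreted. They are the ABC transporters Abcb11, Abcb1a, Abcb1b, Abcb4, Abcc2, Abcg2, Abcg5 and Abcg8 and the phospholipid flippase Atp8b1. They were chosen by name out of 17097 genes that had a probe set with a single gene symbol, and for each gene the probe set with the highest mean over the 6 arrays of a tissue was kept. The 9 genes have 11 such probe sets, 2 each for Abcb1a and Abcb1b and 1 for each of the others.

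The study set out from Abcb11-/- mothers, which lack the bile salt export pump, and the arrays set the lungs of their pups and the livers of such females against WT. Liver RNA came from 1.5-month-old female C57BL/6 mice, 3 wild type (WT) and 3 Abcb11-/-, and the Abcb11 deletion is present in every cell of the latter. Lung RNA came from C57BL/6 offspring that were all Abcb11+/-, taken at E17.5, E18.5 and on neonatal day 0 (N0). At each stage there was 1 array for a WT mother (mated to an Abcb11-/- male) and 1 for an Abcb11-/- mother (mated to a WT male). The controls of the lung comparison thus carry 1 deleted Abcb11 allele as well. The father's genotype changes with the mother's, so their parts in a difference by mother cannot be told apart. The labels name a mouse and a replicate number for each liver array without saying more of litters or cages, so a p-value in the liver measures the spread between these 6 samples. A figure legend of the study gives 3 embryos at E18.5 and 3 neonates per mother for lung gene expression, while the labels name a mouse for each lung array. Whether a lung array holds RNA of 1 pup or of several is not stated.

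Bile forms when ABC pumps use ATP to move solutes into the canaliculus and water follows. Abcb11 exports bile salts, Abcc2 exports bilirubin glucuronides and other organic anions, Abcb1a, Abcb1b and Abcg2 export drugs and other amphipathic compounds, Abcb4 moves phosphatidylcholine to the outer leaflet, and Abcg5 pairs with Abcg8 to secrete cholesterol and plant sterols. Atp8b1 moves phospholipid the other way, to the inner leaflet, which keeps the canalicular membrane resistant to bile salts. Inherited loss of ABCB11, ABCB4 or ATP8B1 causes progressive familial intrahepatic cholestasis in humans, and loss of ABCC2 causes Dubin-Johnson syndrome.

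The genome places several members side by side, and their start regions are shown so that neighbours can be set side by side with their liver values. Abcb1a, Abcb1b and Abcb4 lie in this order on 1 strand of chromosome 5, with no annotated protein-coding gene between them, and Abcg5 and Abcg8 start back to back on chromosome 17. The sequences are from RefSeq (build GRCm38.p6) and run 5′ to 3′. For single genes they end at the base before an annotated start, the first listed where a gene has several. For Abcg8 the annotated start with the highest coordinate was used. Capitals mark every match, on either strand, to AGGTCA (a nuclear receptor half-site), to GGNCANTGNCC (an inverted repeat with 1 base between its arms, written down after the Abcb11 sequence had been read), to TATAAA or to CCAAT.
Abcb11 (chr2:69342617-69342766, minus strand): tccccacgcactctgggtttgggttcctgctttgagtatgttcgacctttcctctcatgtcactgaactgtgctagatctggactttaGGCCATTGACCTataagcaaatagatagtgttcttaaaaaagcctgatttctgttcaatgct
Abcb1a (chr5:8566991-8567090, plus strand): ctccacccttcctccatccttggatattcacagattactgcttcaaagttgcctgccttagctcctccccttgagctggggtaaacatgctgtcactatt
Abcb1b (chr5:8798047-8798146, plus strand): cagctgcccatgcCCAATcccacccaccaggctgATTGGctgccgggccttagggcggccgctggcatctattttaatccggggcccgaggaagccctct
Abcb4 (chr5:8893621-8893720, plus strand): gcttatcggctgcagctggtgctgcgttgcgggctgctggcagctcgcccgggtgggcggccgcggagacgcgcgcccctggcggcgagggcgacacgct
Abcc2 (chr19:43782208-43782307, plus strand): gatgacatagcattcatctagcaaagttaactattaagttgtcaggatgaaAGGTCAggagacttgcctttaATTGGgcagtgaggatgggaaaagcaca
Between Abcg5 and Abcg8 (chr17:84683012-84683120, plus strand): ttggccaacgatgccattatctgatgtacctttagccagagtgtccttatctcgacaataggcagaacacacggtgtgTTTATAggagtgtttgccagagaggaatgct

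In the Abcb11 sequence the capitals hold a match to GGNCANTGNCC, 62 to 52 bases before the start, that overlaps a reverse AGGTCA at 56 to 51. Of 32851 RefSeq start windows, each searched over the 250 bases before the start and not after it, 0.575% hold GGNCANTGNCC and 14.0% hold AGGTCA. The strict inverted repeat AGGTCANTGACCT is in 2 windows of all and in none of the members. Abcc2 has an AGGTCA 49 to 44 bases before its start. Abcg2 has 3 over its windows. The windows of Abcb1a, Abcb1b, Abcb4, Abcg5 and Abcg8 have none in these letters. Abcb1b has CCAAT in each orientation within 87 bases of its start, a motif in 33.8% of all windows, where the Abcb1a window has no match to it. Matches to CCAAT lie in the windows of Abcb4, Abcc2 and Abcg8 too. The 109 bases between the starts of Abcg5 and Abcg8 hold 1 TATAAA match, which lies 31 to 26 bases before Abcg8 on the reverse strand and 84 to 79 bases before Abcg5 on the forward one, and 12.4% of all windows hold TATAAA. A match describes letters in a window and does not show a site in use. In all, 8 of the 9 members had windows used here (11 windows), and none was used for Atp8b1.

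In Abcb11-/- liver, Abcb1a, Abcb4 and Atp8b1 were higher and Abcc2 and Abcg8 lower than in WT liver, besides the deleted Abcb11. With limma and a Benjamini-Hochberg adjustment over all 17097 genes, 3 members passed an adjusted p of 0.05 as higher and 3 as lower (Abcb11 among them), and 3 did not pass. Over all genes, 7.24% passed, 4.33% as higher and 2.91% as lower. Among the 6375 genes with a mean log2 signal of 6 or more, fitted alone, 601 passed as higher and 553 as lower. That is a larger share, and 8 of the 9 members have such means. Shares over all genes, here and for the lists below, include dim genes. The groups did not overlap for 8 of the 9 members, the deleted Abcb11 among them, against 26.0% of all genes. Without Abcb11, whose fall the deletion sets, 5 of 8 members passed, 2 of them as lower. The median log2 difference was 0.12 over the 9 members and 0.00 over all genes, so the members did not move one way as a set. Levels below are deposited log2 signals, comparable between livers for 1 gene but not between genes, since each probe set has its own brightness. In whole liver, fewer cells of a type and less RNA per cell cannot be told apart.

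**Figure D1:**
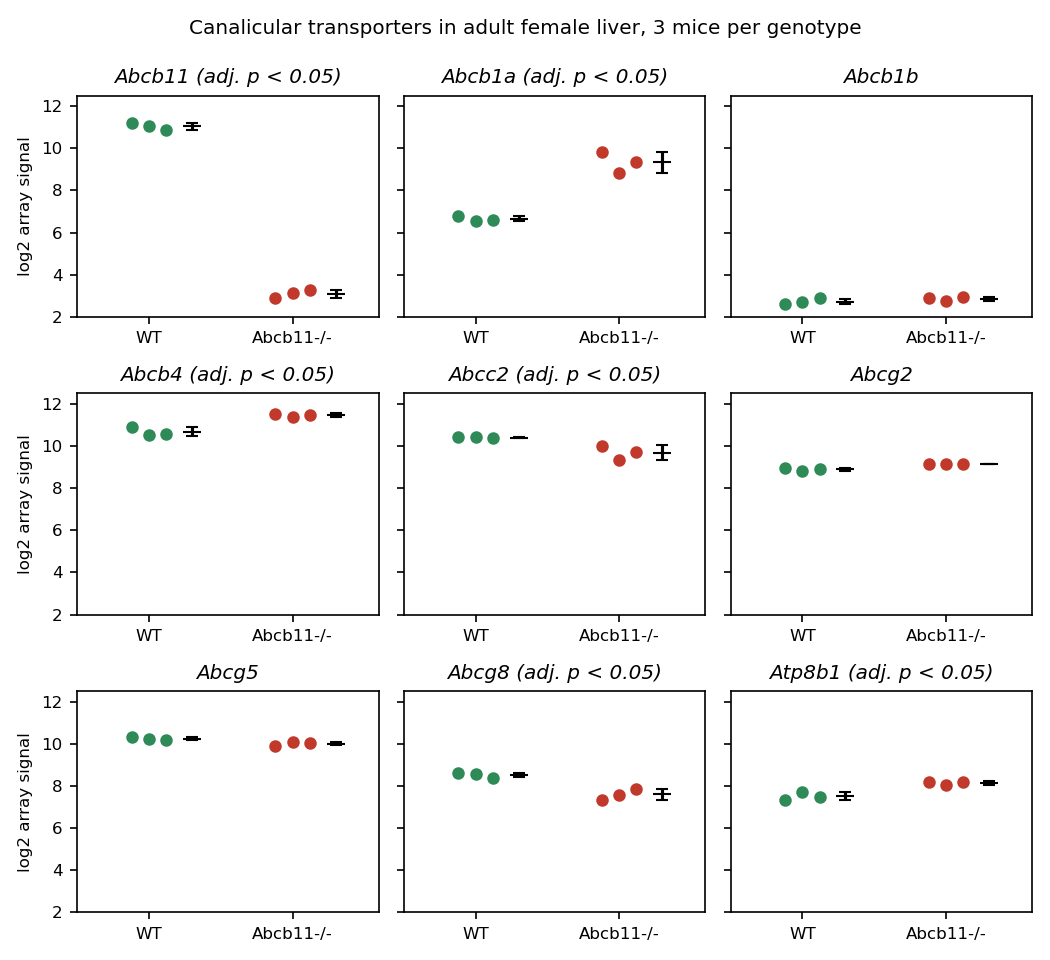
Log2 array signal (vertical axis) of each member in 3 WT (green) and 3 Abcb11-/- (red) livers; points are mice, and the black mark and bar beside them are the mean and SD. Abcb11 drops from 11.05 to 3.10, Abcb1a climbs from 6.65 to 9.34, and the shifts of the other members are below 1 on the log2 scale.

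Abcb11, the bile salt export pump and the deleted gene, checks the labels. It was at log2 signals of 11.22, 11.04 and 10.88 in the 3 WT livers and at 2.90, 3.14 and 3.26 in the 3 Abcb11-/- livers. Every library matched its labelled genotype. The difference was -7.95 (SE 0.13, limma adjusted p = 3.21e-07), and since the Abcb11-/- signal is at the dim end of the array the level was at least 247-fold higher in WT liver. The remaining signal lay close to that of 3 Y-linked genes, which female livers lack, at 2.15 to 2.81. Where the probe set lies relative to the deleted part of the gene is not given in the sources used here.

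Of the drug exporters, Abcb1a rose more than any other member. It was at 6.79, 6.57 and 6.59 in WT liver and at 9.83, 8.84 and 9.34 in Abcb11-/- liver. The lowest Abcb11-/- liver was above the highest WT liver by more than the whole spread of either group. The log2 fold change was 2.69 (SE 0.23, 95% interval 2.16 to 3.22, limma adjusted p = 0.0014), or 6.44-fold with an interval of 4.46 to 9.30. Its dimmer probe set moved alike, from 5.64, 5.11 and 5.10 to 8.49, 7.29 and 7.98, a 6.22-fold difference. On both probe sets Abcb11-/- mouse 1 was highest and mouse 2 lowest.

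Abcb1b, the closest relative of Abcb1a and its neighbour on the chromosome, stayed dim. It was at 2.61, 2.70 and 2.87 in WT liver and at 2.88, 2.75 and 2.92 in Abcb11-/- liver. The groups overlapped, and the log2 difference of 0.12 had a 95% interval of -0.11 to 0.36 (limma adjusted p = 0.563). A second probe set read 2.60, 2.54 and 2.78 against 2.71, 2.48 and 2.67. These signals are in the range of a transcript that is absent, so the array gives no level for Abcb1b in the liver, and the direction of its small difference changed with the probe set (-0.02) and with median centring of the arrays (-0.037). Both Abcb1b probe sets stayed dim in the livers where Abcb1a rose to a mean of 9.34. Whether probes of the 2 related genes pick up each other's transcripts was not tested.

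Abcg2, which exports sulphated and other conjugates, was at 8.95, 8.83 and 8.89 in WT and at 9.13, 9.14 and 9.16 in Abcb11-/- liver. The groups did not overlap, but the log2 difference was only 0.25 (95% interval 0.07 to 0.44) and it did not pass over all genes (limma adjusted p = 0.113).

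**Figure D2:**
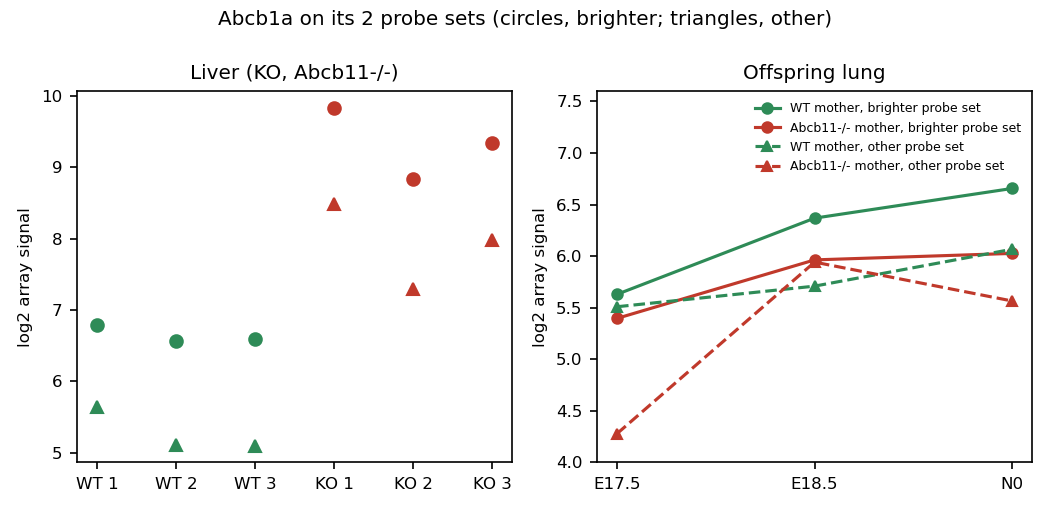
Log2 array signal (vertical axes) of Abcb1a on its brighter (circles) and its other probe set (triangles), in the 6 livers at left and in the 6 offspring lungs at right, green for WT and red for Abcb11-/- mice or mothers. In the liver both probe sets rise by more than 2.6 on the log2 scale, and in the lung they part at E17.5, where the mothers differ by -0.23 on one and -1.23 on the other.

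**Figure D3:**
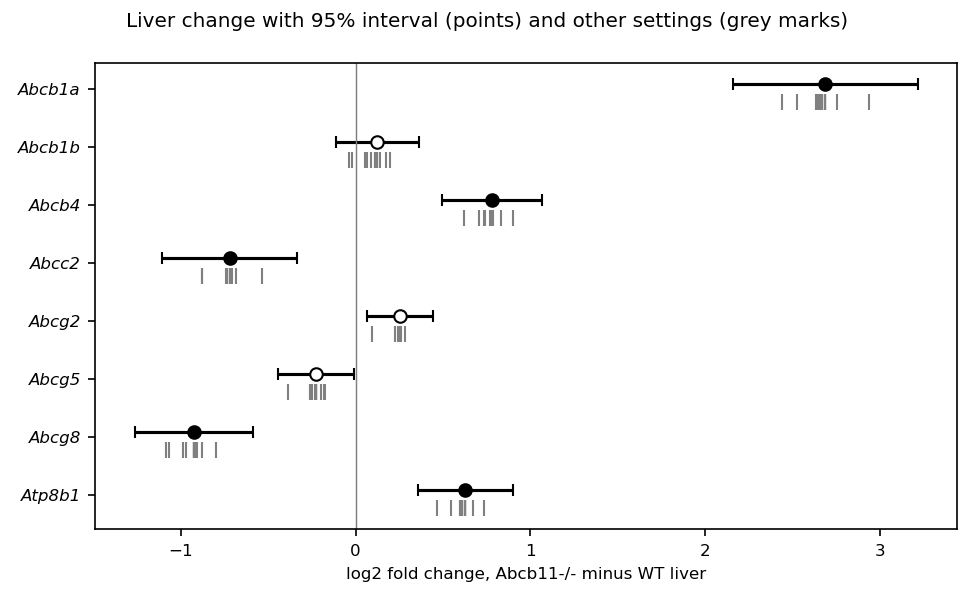
Log2 fold change in Abcb11-/- against WT liver (horizontal axis) for the 8 members other than Abcb11, with 95% intervals; filled points passed an adjusted p of 0.05, and grey marks give the same difference under the other ways of processing. Abcb1a stands apart at 2.69, and the marks of Abcb1b alone fall on both sides of 0.

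The phospholipid carriers were both higher in Abcb11-/- liver. Abcb4, the phosphatidylcholine floppase, was at 10.92, 10.53 and 10.59 in WT and at 11.54, 11.36 and 11.48 in Abcb11-/- liver. All 3 Abcb11-/- livers were above all 3 WT livers. The log2 fold change was 0.78 (SE 0.12, 95% interval 0.49 to 1.07, limma adjusted p = 0.011), or 1.72-fold. Without WT mouse 2 or WT mouse 3 the limma adjusted p was 0.0537 or 0.0532.

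Atp8b1, the flippase, was at 7.35, 7.73 and 7.46 in WT and at 8.19, 8.05 and 8.18 in Abcb11-/- liver. The groups did not overlap, and the WT livers were the more spread. The log2 fold change was 0.63 (SE 0.12, 95% interval 0.35 to 0.90, limma adjusted p = 0.0202), or 1.54-fold. The call was lost on leaving out WT mouse 1 (limma adjusted p = 0.0725), WT mouse 3 (0.0817) or Abcb11-/- mouse 3 (0.0705) from the fit, and over all single omissions the difference lay between 0.55 and 0.73.

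The organic anion exporter Abcc2 was lower. It was at 10.43, 10.42 and 10.37 in WT liver and at 10.01, 9.32 and 9.73 in Abcb11-/- liver. The WT livers lay within 0.06 of each other, and the Abcb11-/- livers ranged over 0.69. The log2 difference was -0.72 (SE 0.17, 95% interval -1.11 to -0.34, limma adjusted p = 0.0427), a 1.65-fold higher signal in WT liver. This was the least stable call among the members. The adjusted p was 0.131, 0.143 or 0.121 when WT mouse 1, 2 or 3 was left out of the limma fit, 0.108 without Abcb11-/- mouse 3 and 0.0532 after quantile normalization. The probe set name carries the maker's suffix for probes shared by several transcripts.

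Of the sterol exporter pair, Abcg8 passed as lower and Abcg5 did not. Abcg8 was at 8.62, 8.56 and 8.40 in WT and at 7.34, 7.58 and 7.88 in Abcb11-/- liver. The highest Abcb11-/- liver was below the lowest WT liver. The log2 difference was -0.93 (SE 0.15, 95% interval -1.26 to -0.59, limma adjusted p = 0.0108), a 1.90-fold higher signal in WT. Without WT mouse 1 or WT mouse 2 the limma adjusted p was 0.0526 or 0.0554.

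Abcg5, which shares a start region with Abcg8 and works only as its partner, was at 10.33, 10.23 and 10.17 in WT and at 9.91, 10.08 and 10.06 in Abcb11-/- liver. The groups did not overlap, and the log2 difference of -0.23 (95% interval -0.44 to -0.01) did not pass (limma adjusted p = 0.208), except with median centring (-0.39, limma adjusted p = 0.0335). Within each array, the log2 signal of Abcg8 minus that of Abcg5, a pair chosen after its values were seen and not tested, was -1.72 ± 0.05 (SD, n = 3) in WT and -2.42 ± 0.21 in Abcb11-/- liver. The difference was thus more negative by 0.70 on average, and in every Abcb11-/- liver it lay below that of all WT livers.

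Cell type markers were read beside these results. None of 15 measured hepatocyte markers passed, their median log2 difference was -0.02, and their summed level (log2 of the summed signals) was 16.82 to 16.87 in WT and 16.77 to 16.84 in Abcb11-/- liver. Many of them, such as Alb at 13.83, lay near the highest signals of the liver arrays (13.84 to 14.16), where a change may not show. Of the dimmer ones, Afp differed by 1.74 and Apob by -0.96 (limma adjusted p = 0.195 and 0.0921), and Hnf4a by 0.10. Of 7 neutrophil markers, 4 were higher in Abcb11-/- liver, and their summed level was 6.21 to 6.76 in WT against 7.50 to 9.08. Of 7 bile duct markers 2 were higher (Sox9 and Epcam), with summed levels of 6.04 to 6.19 against 6.39 to 6.68. Among these calls, Mmp8 of the neutrophil list (mean 2.37 in WT, 2.81 in Abcb11-/- liver), Sox9 (3.01, 4.16) and Epcam (3.67, 4.33) were dim. Summed cell cycle markers were 6.66 to 7.70 in WT and 9.96, 7.43 and 7.42 in Abcb11-/- mice 1, 2 and 3, with none of 9 passing. Macrophage sums overlapped (11.74 to 12.28 and 11.57 to 12.86, none of 10 passing). Abcb11-/- mouse 1, highest for Abcb1a and lowest for Abcg8, was thus also highest for the cell cycle markers, and without it the log2 fold changes were 2.44 for Abcb1a and -0.80 for Abcg8. The part of neutrophils, bile duct cells and dividing cells in the members' differences was not tested.

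Other genes of the transporter families were counted in the same way. Of 35 other ABC transporters measured, 14.3% passed in the liver (7.24% of all genes did), 2 as higher and 3 as lower, and their median log2 difference was -0.11. Abcc4, which exports bile salts and conjugates across the sinusoidal face toward the blood, rose by 1.44 (from 5.63 ± 0.31 to 7.07 ± 0.39, SD, n = 3 each, limma adjusted p = 0.0103). Abcg1, a cholesterol exporter, rose by 0.94 (limma adjusted p = 0.00822), and Abcc6, a hepatocyte transporter needed for release of ATP to the blood, fell by 0.60 (limma adjusted p = 0.0112). Of 14 other P4-ATPases and their CDC50 partner subunits, 7.14% passed, a share near that of all genes. The 1 gene was Atp9a (0.41, limma adjusted p = 0.0247), and the list median was 0.08. The calls of Abcc4 and Abcg1 held without each liver in turn. Without WT mouse 1 or 2 no other ABC transporter passed as lower, Abcc6 included (highest limma adjusted p = 0.0545). Atp9a passed with all livers and without Abcb11-/- mouse 2, and its call was lost without any other single liver (highest limma adjusted p = 0.0969). Whether these lists differ from the members was not tested.

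Of 27 measured genes that anchor the canalicular membrane, seal it or carry proteins to it, 4 were higher and 3 lower (25.9%, against 7.24% of all genes, median 0.08). Cingulin (Cgn), a junctional adaptor, rose by 1.44 (limma adjusted p = 0.0169), Mal2, which takes part in apical delivery, by 1.06 (limma adjusted p = 0.00517), and occludin (Ocln), a tight junction strand protein, by 0.93 (limma adjusted p = 0.0101). Myo5b, the motor that brings canalicular ABC transporters to the membrane on Rab11 vesicles, rose by 0.75 (limma adjusted p = 0.00582). Of the genes that were lower, the phosphatidylinositol transfer protein gene Pitpnc1 fell by 0.81 (limma adjusted p = 0.0437), the canalicular aminopeptidase Anpep by 0.62 (limma adjusted p = 0.00796) and Pdzk1, a scaffold that binds the tails of apical transporters, by 0.57 (limma adjusted p = 0.0405). The calls of Mal2, Myo5b and Anpep held without each liver in turn. Those of Pitpnc1 and Pdzk1 were lost without any liver but Abcb11-/- mouse 2 (highest limma adjusted p = 0.132 and 0.151), that of Cgn without WT mouse 2 or Abcb11-/- mouse 3 (0.0621) and that of Ocln without WT mouse 1 (0.0504). Cgn and Ocln are made in bile duct cells too.

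Of 19 measured transcription factors and cofactors known to act on canalicular transporter genes, 2 were higher and 5 lower (36.8%, against 7.24% of all genes, median -0.18). All had mean log2 signals above 6. Among the 6375 genes with a mean of 6 or more, fitted alone, 601 were higher and 553 lower. That fit called 3 of the regulators higher and 6 lower. Nr0b2 (SHP), a repressor induced by bile acids, rose by 1.76 (limma adjusted p = 0.0283), from WT livers that varied widely (8.18 ± 0.80, SD, n = 3). Ppara, the fatty acid receptor, fell by 1.45 (limma adjusted p = 0.000398), and Nr1i2 (PXR), a xenobiotic and bile acid receptor, rose by 1.04 (limma adjusted p = 0.00613). Nr1h4 (FXR), the bile acid receptor known to drive Abcb11 and Abcb4, fell by 0.85 (limma adjusted p = 0.0108) and its partner Rxra by 0.65 (limma adjusted p = 0.0305). Nr5a2 (LRH-1), known to act on Abcg5 and Abcg8, fell by 0.50 (limma adjusted p = 0.019). The calls of Ppara and Nr1i2 held without each liver in turn. That of Nr1h4 was lost without WT mouse 2 (limma adjusted p = 0.0545), that of Nr0b2 without WT mouse 1, Abcb11-/- mouse 2 or Abcb11-/- mouse 3 (highest 0.0816), that of Nr5a2 without any WT mouse or Abcb11-/- mouse 3 (highest 0.0817) and that of Rxra without any liver but Abcb11-/- mouse 2 (highest 0.0964). The lists were drawn up with earlier results of these data known.

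**Figure D4:**
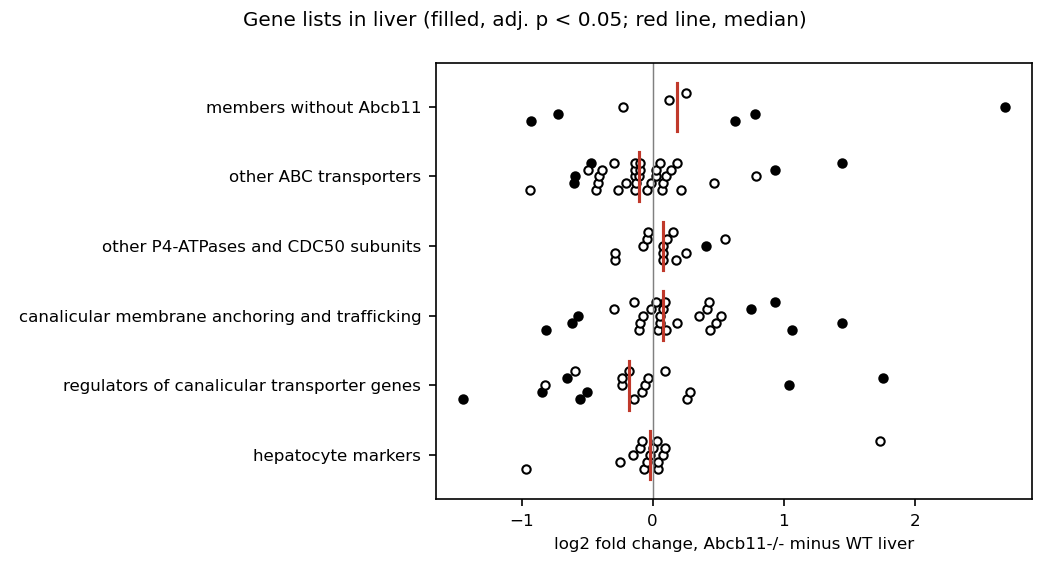
Log2 fold change in Abcb11-/- against WT liver (horizontal axis) for the members without Abcb11, 4 gene lists around them and hepatocyte markers; each point is a gene, filled if it passed an adjusted p of 0.05, and the red line is the list's median. The list medians lie near 0 while single genes lie up to 2.69 away, and no hepatocyte marker is filled.

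In the offspring lung, 3 members were above the dim end of the array and 6 were not. Abcb1a, Abcg2 and Atp8b1 had mean log2 signals of 6.01, 8.03 and 6.03 over the 6 lung arrays. The other 6 members lay between 2.62 and 4.02 on every lung array. Abcb11, with 1 intact allele in all these pups, read 2.96 to 3.20, Abcc2 2.62 to 2.80, Abcg5 2.67 to 3.15, Abcb4 2.87 to 3.52, Abcb1b 3.06 to 3.64 and Abcg8 3.26 to 4.02. For these 6 the arrays give a signal too low to rank stages or mothers.

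Each stage and mother had 1 array, so a difference between mothers within a stage cannot be set against the spread between animals. A limma fit with terms for stage and mother left 2 residual degrees of freedom and assumed that the mothers differ alike at the 3 stages. It called no member for the mother and, over all genes, 0.0% (0 of 17097, with 867 genes or 5.07% at an unadjusted p under 0.05). From E17.5 to E18.5 it called no member and 0.0585% of all genes (10, with 2191 or 12.8% unadjusted), and from E18.5 to N0 no member and 0.0% (0, with 2098 or 12.3% unadjusted).

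Abcb1a, best known from the capillary endothelium of the brain, was at 5.63, 6.37 and 6.66 at E17.5, E18.5 and N0 with a WT mother. With an Abcb11-/- mother it was at 5.40, 5.96 and 6.03. It was lower with an Abcb11-/- mother at all 3 stages, by 0.23, 0.40 and 0.63. The mother's difference over the stages was -0.42 (SE 0.12, 95% interval -0.73 to -0.12, limma adjusted p = 0.926) and did not pass over all genes. The dimmer probe set read 5.51, 5.71 and 6.07 against 4.28, 5.94 and 5.56, so that its differences were -1.23, 0.23 and -0.50 and the order of the mothers turned at E18.5. The 3 measured Y-linked genes were lower with an Abcb11-/- mother too, with median differences of -0.45, -1.41 and -0.29 at E17.5, E18.5 and N0 and summed levels of 8.29, 7.14 and 7.98 against 8.73, 8.52 and 8.52. At E18.5 all 3 were at least 1.5-fold lower. The Y-linked levels thus moved with the mother in these arrays, and the part of pup sex in the Abcb1a difference was not tested.

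Both mothers' arrays carried more Abcb1a at E18.5 than at E17.5, by 0.65 on average (95% interval 0.28 to 1.03, limma adjusted p = 0.186), and the difference from E18.5 to N0 was 0.18 (limma adjusted p = 0.711). The latter was 0.020 without the N0 array of the WT mother, 0.33 without that of the Abcb11-/- mother and 0.083 with averaged probe sets. Neither passed over all genes. In the liver of Abcb11-/- adults the same gene was higher than in WT by 2.69, while in lungs of pups of Abcb11-/- mothers the brighter probe set was lower. These contrasts differ in tissue, age and genotype and were not tested against each other.

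Abcg2, the lung member with the brightest probe set and a known gene of side population cells and endothelium, hardly varied. It was at 8.16, 8.12 and 7.95 with a WT mother and at 7.77, 8.03 and 8.13 with an Abcb11-/- mother at E17.5, E18.5 and N0. The mothers' order turned between E17.5 (-0.39) and N0 (0.18), and over the stages the difference was -0.10 (95% interval -0.45 to 0.25, limma adjusted p = 0.972).

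Atp8b1, which in lung epithelium is known to affect cardiolipin handling, was at 5.96, 5.95 and 6.01 with a WT mother and at 6.21, 6.09 and 5.96 with an Abcb11-/- mother. Its 6 values spanned 0.26, and the mother's difference was 0.11 (95% interval -0.17 to 0.40, limma adjusted p = 0.961).

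**Figure D5:**
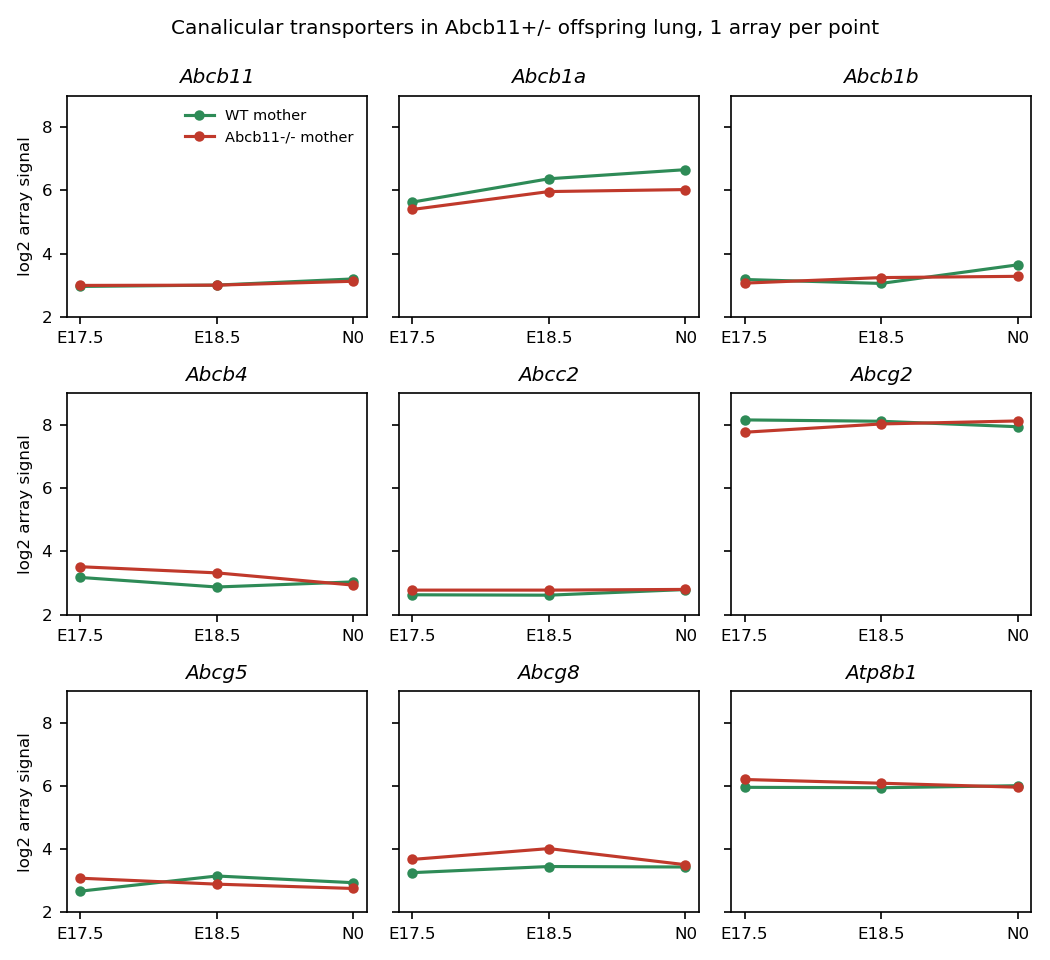
Log2 array signal (vertical axis) of each member at E17.5, E18.5 and N0 in Abcb11+/- offspring lung, green for a WT and red for an Abcb11-/- mother; each point is 1 array, and lines join arrays of successive stages, not the same animals. Only Abcb1a (5.40 to 6.66), Abcg2 (7.77 to 8.16) and Atp8b1 (5.95 to 6.21) lie above the dim end of the array, and the red Abcb1a line runs below the green one throughout.

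At single stages, no member was 1.5-fold or more apart between mothers at E17.5 (7.02% of all genes were) or at E18.5 (3.39%), and 1 was at N0 (7.04%), namely Abcb1a. On the dimmer probe set Abcb1a was instead more than 1.5-fold apart at E17.5 and not at N0.

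For the Abcb11-/- mother, the array at E17.5 stood apart from its WT-mother partner by its liver and muscle transcripts. Of 15 hepatocyte markers 12 were at least 1.5-fold higher on it than on its WT-mother partner, with a median log2 difference of 4.64 and summed levels of 14.41 against 10.25. Alb was at 13.01 against 9.05, Apoa1 at 10.68 against 5.33 and the hepatocyte factor Hnf4a at 4.86 against 2.97. Of 10 skeletal muscle markers 9 were higher, with a median of 4.50. Other lists differed on the same array as well. Of 8 lung epithelial markers 5 were at least 1.5-fold higher (median 0.88) and of 7 neutrophil markers 4 (0.98), while 6 of 9 heart muscle markers (-0.81) and 5 of 9 cell cycle markers (-0.63) were lower. Their part in the mothers' differences at E17.5 was not tested. At E18.5 the hepatocyte median was 0.02 and at N0 0.14.

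The canalicular members stayed dim there. On the same E17.5 array Abcb11 read 2.99 (2.96 with a WT mother), Abcc2 2.78 (2.63), Abcg5 3.08 (2.67), Abcb4 3.52 (3.18) and Abcg8 3.68 (3.26). All 5 were thus within 0.42 of the partner array and under 3.7. Endothelial markers had median differences of -0.20, -0.15 and -0.02 at E17.5, E18.5 and N0, beside -0.23, -0.40 and -0.63 for Abcb1a. At N0, 5 of 7 neutrophil markers were lower and 5 of 9 heart muscle markers higher with an Abcb11-/- mother (medians -0.69 and 0.84). Without the E17.5 arrays the mother's difference was -0.52 for Abcb1a, 0.048 for Abcg2 and 0.048 for Atp8b1, and no member passed.

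The genes whose profile over the 6 lung arrays was most like that of each brighter member were found by Pearson correlation among 1789 genes with a mean log2 signal of 6 or more and an SD of 0.3 or more. For Abcb1a (SD 0.46) they were Gja4, an endothelial gap junction gene (r = 0.99), and Scnn1a, an epithelial sodium channel subunit (r = 0.98). Both share its order, with signals lowest at E17.5 and lower with an Abcb11-/- mother at every stage. Since both were picked for this likeness, it is no separate evidence on the mothers. For Abcg2 they were the endothelial receptor Robo4 (r = 0.95) and the smooth muscle myosin light chain Myl9 (r = 0.95), and for Atp8b1 the haem synthesis gene Cpox (r = 0.92) and the transferrin receptor Tfrc (r = 0.88). These are descriptions over 6 arrays that share stages and mothers, and the SDs of Abcg2 (0.15) and Atp8b1 (0.10) leave little pattern to match.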

How the data were processed

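Total RNA was hybridized to 12 Affymetrix mouse arrays (6 liver, 6 lung). The authors used robust multiarray averaging (RMA) to make 1 deposited log2 signal per probe set and array. The submitters' processing notes name Partek 6.5. Tissues were fitted apart, since array medians differed (liver 3.15 to 3.18, lung 3.63 to 3.68). The values carry no detection p-value, RMA compresses low signals, and the number of arrays limits the precision. No pair of arrays was identical.

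Probe sets were named from the platform annotation. Of 45037, 28898 had 1 symbol, 551 several and 15588 none, and 28689 were matched to a current symbol. The brightest probe set in a tissue stood for each of 17097 genes (7180 had several). The 9 members and all lists were chosen with earlier results of these data known. Named genes were the members, of each list the 3 called genes with the largest liver change, the 2 genes most like each brighter lung member, and hepatocyte markers. Myo5b, Pitpnc1, Anpep, Pdzk1, Nr1h4, Rxra, Nr5a2, Sox9, Epcam and Mmp8 were named after their values were seen.

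Liver values were tested by genotype and lung values by stage and mother in R 4.3.3 with limma 3.58.1 (two-sided, Benjamini-Hochberg over all genes, adjusted p under 0.05), after a test on simulated data. Single lung stages were described at 1.5-fold without a test. The alternatives tried were quantile normalization, median centring, averaged probe sets, a mean log2 signal of 6 or more, a robust prior with a trend, a replicate block, the methods' t-test, leaving out arrays or stages, a 2-fold threshold and, added after seeing the data, leaving out each lung array and the other probe set of Abcb1a and Abcb1b. Start regions came from RefSeq (GRCm38.p6). Probe positions, protein sequences and Q-PCR were not used here.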

Additional observations from a re-analysis of the deposited data

How the results depend on the processing

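Abcb11 kept its direction and call in the liver under all 14 alternatives tried, and Abcb1a under all but the methods' t-test after adjustment (adjusted p = 0.0644). That test left 0 members higher and 1 lower, where limma gave 3 and 3, and it called 26 genes higher and 23 lower of all, or 1685 and 1444 unadjusted, against 740 and 498 with limma. Leaving out 1 liver array gave 1 to 3 members higher (1 without WT mouse 3), 1 to 3 lower (1 without WT mouse 1 or 2), and 315 to 888 genes higher and 177 to 621 lower of all. Median centring shifted the median of all genes by -0.16 and gave 548 genes higher and 1659 lower, and under it Abcb1b reversed to -0.037, as it did on its other probe set (-0.02).

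Replicate numbers did not pair the livers (correlations of same-numbered deviations -0.045, -0.041 and -0.135). With the replicate number as a block, 429 genes were higher and 242 lower, and Abcc2 and Atp8b1 no longer passed (limma adjusted p = 0.0753 and 0.0746). The block gave 1 other ABC transporter lower, 0 P4-ATPase genes higher (also 0 with averaged probe sets), 2 anchoring genes higher and 1 lower, and 1 regulator higher and 1 lower. Without 1 liver array these counts were 0 to 5 for ABC genes lower, 0 to 1 for P4-ATPase genes higher, 1 to 3 for anchoring genes lower, and for regulators 1 to 2 higher and 1 to 7 lower. A mean log2 signal of 6 or more gave 5 ABC genes lower. Among the members, other calls were lost with the array left out that is named beside each gene, and that of Abcc2 after quantile normalization. Abcg5 was gained with median centring, and Abcg2 and Abcg5 in the unadjusted t-test. The lists gained calls too. Without Abcb11-/- mouse 2, 6 anchoring genes (4 with all livers) and 3 other ABC transporters (2 with all livers) were higher.

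In the lung no member passed in any fit. Over all genes the mother gave 0 to 1 genes higher (1 with the mean filter or the robust prior). For E18.5 against E17.5, 9 genes were higher and 1 lower, with 0 and 0 after quantile normalization or median centring, 36 and 9 with the mean filter, 130 and 67 with the robust prior, 0 lower with averaged probe sets, and 0 to 134 higher and 0 to 173 lower without 1 array (most without the E17.5 array of an Abcb11-/- mother). For N0 against E18.5, 0 and 0 became 12 and 2 with averaged probe sets, 13 and 5 with the filter, 62 and 25 with the prior, 14 and 4 without the mother term, and 0 to 24 and 0 to 11 without 1 array. Without the E17.5 arrays the mother's difference of Abcg2 turned to 0.048, and leaving out 1 array gave -0.24 to 0.048. Stage differences near 0 turned too. For Abcb1a, leaving out an array gave 0.51 to 0.79 from E17.5 to E18.5 and 0.020 to 0.33 from E18.5 to N0. From E17.5 to E18.5 it gave -0.11 to 0.33 for Abcg2 and -0.17 to 0.035 for Atp8b1. From E18.5 to N0 it gave -0.25 to 0.17 and -0.15 to 0.091, median centring gave 0.048 and 0.056, and quantile normalization 0.039 for Atp8b1. With averaged or other probe sets 1 member was 1.5-fold apart at E17.5 and 0 at N0, and none was 2-fold apart at N0. The causes were not tested.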
